A study of Rattus norvegicus with 6 samples.

Results

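The transcription factors that specify and maintain the hormone-producing cells of the pancreatic islet were compared between islets of 3-month-old and 12-month-old rats. They are a set of 8 genes: *Neurod1*, *Pdx1*, *Mafa*, *Nkx2-2*, *Nkx6-1*, *Isl1*, *Pax4* and *Pax6*. Islets are the clusters of endocrine cells of the pancreas and were taken by collagenase digestion from male Wistar rats, and the labels give no treatment at either age. RNA of 3 islet samples of each age was hybridised, in 1 colour, to Arraystar/Agilent arrays, and the study used the comparison to ask whether transcripts differ with age. Probes were assigned to the 8 genes through their RefSeq mRNA accession. This gave 1 probe each, on 1 spot, for 5 of the 8 genes, out of 24684 probes on the array. No probe was matched to *Pdx1*, *Mafa* or *Nkx2-2*, and these 3 genes were not analysed here. The *Pax4* probe was well above background on none of the arrays, so that 4 genes were tested among 17941 probes.

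These factors form a regulatory network of DNA-binding proteins in the endocrine pancreas. Neurod1 is a basic helix-loop-helix protein that binds the E-box of the insulin promoter as a dimer with an E protein. Pdx1, Nkx2-2, Nkx6-1 and Isl1 are homeodomain proteins, Pax4 and Pax6 are paired-domain proteins and Mafa is a basic leucine zipper protein, and several of them act on the insulin promoter. Inherited loss of function of *NEUROD1* or *PDX1* causes forms of monogenic diabetes (MODY).

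The promoters of both rat insulin genes and of *Neurod1* are shown because the insulin promoters are the textbook sites of these factors and *Neurod1* is the member that the study followed further. Each run holds the 250 bases before and the first 50 bases after the start of the gene, from RefSeq on assembly GRCr8, in the direction of the gene. *Ins1* lies on the plus strand at chr1:261185869-261186168. *Ins2* lies on the minus strand at chr1:207273756-207274055. *Neurod1* lies on the minus strand at chr3:84770405-84770704. Capitals mark 3 short motifs searched on both strands: CATCTG (or CAGATG), an E-box of the kind bound by helix-loop-helix dimers, TAATTA, a core bound by many homeodomain proteins, and TGCTGA (or TCAGCA), the core of Maf recognition elements. In *Ins2* the CATCTG and TGCTGA matches overlap and appear as 1 capital run.
Ins1: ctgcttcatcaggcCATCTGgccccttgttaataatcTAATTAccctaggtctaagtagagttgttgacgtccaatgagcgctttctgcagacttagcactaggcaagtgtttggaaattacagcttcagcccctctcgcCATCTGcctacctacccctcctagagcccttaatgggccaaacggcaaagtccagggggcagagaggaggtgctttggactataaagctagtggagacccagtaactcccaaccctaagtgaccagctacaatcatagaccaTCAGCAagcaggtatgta
Ins2: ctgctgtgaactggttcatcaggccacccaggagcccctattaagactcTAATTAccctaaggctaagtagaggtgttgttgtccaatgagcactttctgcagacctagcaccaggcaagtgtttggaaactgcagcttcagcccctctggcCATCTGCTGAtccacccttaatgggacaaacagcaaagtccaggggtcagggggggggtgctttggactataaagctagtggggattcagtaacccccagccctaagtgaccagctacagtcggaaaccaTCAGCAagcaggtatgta
Neurod1: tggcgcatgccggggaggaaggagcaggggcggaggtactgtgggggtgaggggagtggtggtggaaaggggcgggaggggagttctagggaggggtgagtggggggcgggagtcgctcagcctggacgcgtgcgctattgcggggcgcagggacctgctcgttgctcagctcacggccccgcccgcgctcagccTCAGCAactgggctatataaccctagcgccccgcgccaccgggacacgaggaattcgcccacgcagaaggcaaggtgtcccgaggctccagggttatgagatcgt
The E-box motif was found in *Ins1* at -236 and -110 and in *Ins2* at -98, counted from the start of the gene to the first base of the match. TAATTA was found at -213 in *Ins1* and at -201 in *Ins2*. The *Neurod1* window held none of the first 2 motifs and had TCAGCA at -55. Of 33469 rat promoters of this length, 16.6% held the E-box motif, 5.36% TAATTA and 18.4% the Maf core. A promoter window was available for 7 of the 8 members (all except *Mafa*). None of the 7 held the E-box motif or TAATTA, and 2 held the Maf core, *Neurod1* and *Pdx1*. A match is a description of letters and not a measured binding site.

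Values are quantile-normalized log2 signals, and levels are not compared between probes. Beyond the age of the rats, the arrays differed in technical measures. Each age was scanned separately (3 arrays per scan), and therefore the scan and the age of the rats cannot be told apart. Probes well above background made up 73.1% to 77.5% of all probes at 3 months and 59.5% to 64.2% at 12 months, and the median negative control spot read 29.5 to 31.0 and 89.5 to 91.0 scanner units. The supplement of the study gives 3 rats of each age without tying arrays to rats, and p-values measure only the spread between these arrays. Among 6 β-cell markers, 5 were matched, and the hormone genes *Ins1*, *Ins2*, *Gcg*, *Sst* and *Ppy* were well above background on all 6 arrays, as were 8 of 8 matched acinar enzyme genes. In such bulk RNA, fewer cells of a type and less RNA per cell cannot be told apart.

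*Neurod1*, *Isl1* and *Pax6* were higher in 12-month-old islets, by 4.59-fold, 9.53-fold and 2.29-fold, and *Nkx6-1* differed by less than the spread between arrays. *Neurod1* read 11.45, 12.06 and 12.09 log2 units on the 3-month arrays and 13.79, 14.26 and 14.14 on the 12-month arrays. Every 12-month array was above every 3-month array. The means were 11.87 ± 0.36 and 14.07 ± 0.24 (SD, n = 3 each), a difference of 2.20 on the log2 scale (limma SE 0.28, 95% interval 1.53 to 2.87, adjusted p 0.0108). *Neurod1* belongs to the genes that the study itself picked from these arrays for its monogenic diabetes pathway, so the array values are not independent evidence of its direction. The study also reported its induction by qPCR, without saying whether the same rats were used. On the arrays *Neurod1* ranked 547 from the top among 17941 signed differences.

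*Isl1*, a LIM-homeodomain factor needed for the maturation of islet endocrine cells, had low signals at 3 months. Its values were 5.11, 5.45 and 4.94 log2 units at 3 months and 8.24, 7.76 and 9.26 at 12 months. The groups did not overlap, and the 12-month arrays were more spread than the 3-month arrays. The means were 5.17 ± 0.26 and 8.42 ± 0.77 (SD, n = 3 each), which differed by 3.25 (limma SE 0.41, 95% interval 2.27 to 4.24, adjusted p 0.0106). The probe was well above background on all 6 arrays. However, the lowest signal well above background on each array was between 2.89 and 3.17 log2 units at 3 months and between 4.26 and 5.13 at 12 months, so that the 3-month values of *Isl1* lay close to the detection limit of the other age. With normexp background correction, whose offset compresses differences of dim probes, the difference was 2.10 (limma adjusted p 0.0158), and the groups again did not overlap.

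*Pax6*, a paired-domain factor required for the formation of glucagon cells and for hormone gene expression, read 12.99, 13.59 and 13.66 log2 units at 3 months and 14.46, 14.85 and 14.51 at 12 months. All 12-month arrays were above all 3-month arrays, with the lowest value on 3-month replicate 1. The means of 13.41 ± 0.37 and 14.60 ± 0.21 (SD, n = 3 each) differed by 1.19 (limma SE 0.28, 95% interval 0.53 to 1.86, adjusted p 0.0489). This call was close to the threshold. It was lost when any 1 of the 6 arrays was left out (limma adjusted p 0.0749 to 0.143) and with a 75th percentile shift in place of quantile normalization (difference 0.86, limma adjusted p 0.114). *Pax6* was also listed by the study in its monogenic diabetes pathway.

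*Nkx6-1*, a homeodomain factor that maintains β-cell identity, read 14.92, 14.81 and 15.23 log2 units at 3 months and 14.30, 15.28 and 14.74 at 12 months. The lowest and the highest value were both on 12-month arrays, and the groups overlapped. The means were 14.99 ± 0.22 and 14.77 ± 0.49 (SD, n = 3 each). The difference was -0.22 (limma SE 0.31, adjusted p 0.650), with a 95% interval from -0.97 to 0.53 that leaves room for a fall to 0.512-fold and for a rise to 1.45-fold. Without 12-month replicate 1 the difference was 0.020.

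*Pax4*, a paired-domain repressor that acts in the specification of β-cells, read 3.49, 3.04 and 3.07 log2 units at 3 months and 3.65, 3.08 and 3.26 at 12 months. On none of the 6 arrays was the probe well above background, and these values set no level at either age. The plot of the signal by array shows the 5 members with a probe.

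**Figure D1:**
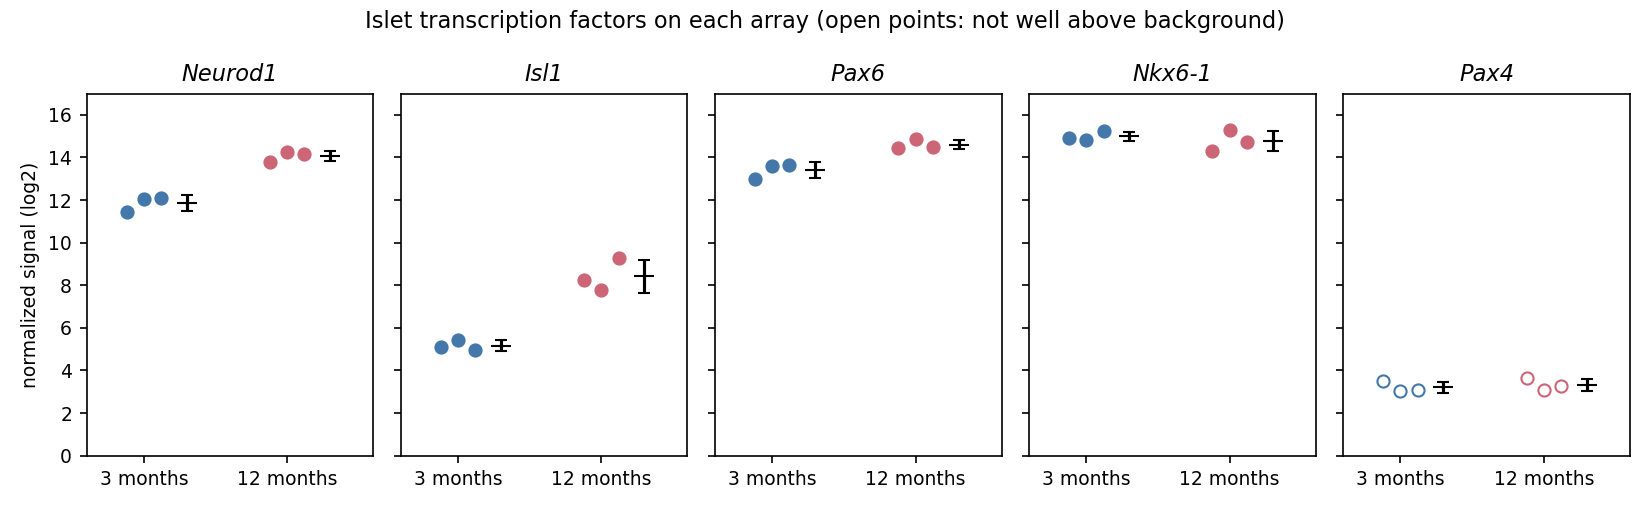
Quantile-normalized signal (log2, vertical axis) of the 5 members with a probe on each of the 3 arrays at 3 months and the 3 at 12 months; points are arrays, bars are mean ± SD, and open points were not well above background. *Neurod1*, *Isl1* and *Pax6* show no overlap between the ages, *Nkx6-1* overlaps, and heights are not comparable between panels.

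Read against all probes, 3 of the 4 tested members were called higher (limma, Benjamini-Hochberg adjusted p below 0.05), where 5.32% of the tested probes were called higher. None of the 4 was called lower, where 3.05% of probes were. Of the 13551 probes well above background on all 6 arrays, as the 4 members were, 5.83% were called higher. The thresholds that the study used (more than 2-fold, unadjusted p below 0.05) were applied here to the limma p. By these, the same 3 members were called higher and none lower, against 10.1% and 11.9% of the tested probes. The supplement of the study names a paired test for its own p. With a paired test on arrays paired by replicate, the 3 members again passed, beside 1552 of 17931 probes, 958 of them higher. The groups did not overlap, with the 12-month arrays higher, for 3 of the 4 members and for 16.5% of probes with a value on all arrays. An exact permutation test of 3 arrays against 3 gave p 0.1 for each of the 3, the smallest two-sided value that this design allows, and p 0.5 for *Nkx6-1*.

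The differences of all probes were not centred on 0. The median difference of the tested probes was -0.17 on the log2 scale, and -0.40 with the 75th percentile shift. Relative to this median, the differences were 2.37 for *Neurod1*, 3.42 for *Isl1*, 1.36 for *Pax6* and -0.05 for *Nkx6-1*. With the shift, the corresponding values were 2.34, 3.35, 1.26 and -0.19. A smaller difference was found for 99.1% of tested probes in the case of *Isl1*, 96.95% for *Neurod1*, 89.96% for *Pax6* and 47.7% for *Nkx6-1*.

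**Figure D2:**
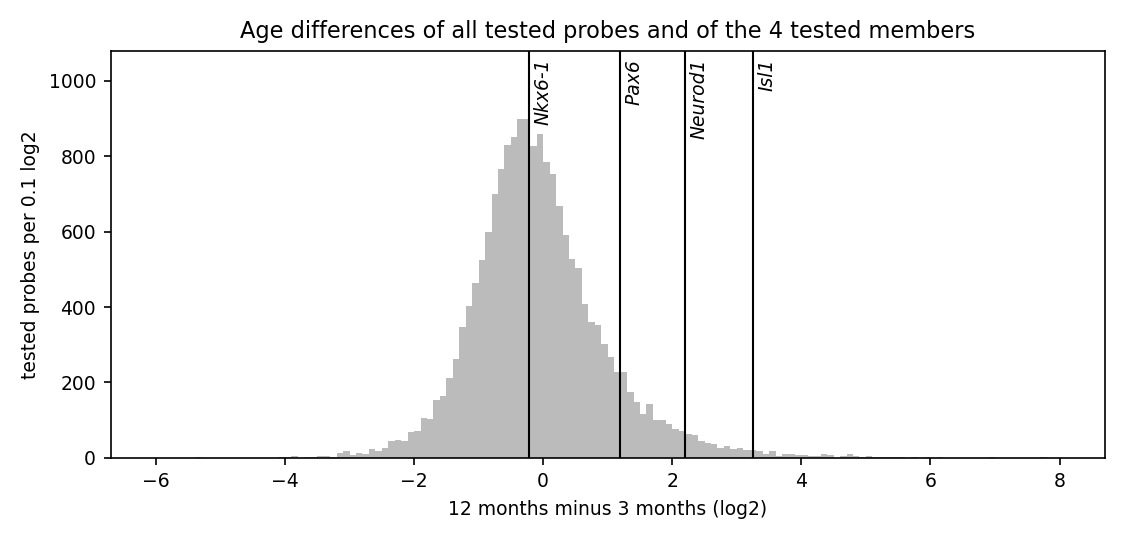
Number of tested probes (vertical axis) by difference between 12 and 3 months (log2, horizontal axis), for all 17941 tested probes; vertical lines mark the 4 tested members. *Nkx6-1* at -0.22 lies near the median of -0.17, and *Pax6*, *Neurod1* and *Isl1* lie to its right at 1.19, 2.20 and 3.25.

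The separation was also present before normalization, with the reservation that the scans of the ages differed. The background-subtracted signal of *Neurod1* was 772, 4295 and 5653 scanner units at 3 months and 24805, 32584 and 14294 at 12 months. That of *Isl1* was 17.7, 39.4 and 34.8 at 3 months and 618, 328 and 601 at 12 months. That of *Pax6* was 2377, 12681 and 17664 at 3 months and 38032, 49942 and 18343 at 12 months. For these 3 genes the groups did not overlap, although the brightest 3-month and the dimmest 12-month array were close for *Pax6*. *Pax4*, well above background on no array, did not overlap either, at 6.94, 6.68 and 8.85 against 16.9, 12.2 and 9.40. The share of all probes that separate before normalization was not computed, so this separation is no support for a rise of the members. *Nkx6-1* read 9525, 29949 and 52240 scanner units at 3 months and 34262, 63714 and 21772 at 12 months, with overlap. *Neurod1*, *Isl1*, *Pax6* and *Nkx6-1* were each dimmest on 3-month replicate 1 before normalization.

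To ask whether the members changed by unequal amounts, the log2 difference of *Neurod1* minus each of the other tested members was formed within each array, which allowed 3 comparisons. *Neurod1* minus *Nkx6-1* changed by 2.42 between the ages, from -3.12 ± 0.36 to -0.71 ± 0.27 (SD, n = 3 each; exact permutation p 0.1, adjusted over the 3 comparisons 0.15). *Neurod1* minus *Pax6* changed by 1.01, from -1.54 ± 0.02 to -0.54 ± 0.16 (SD, n = 3 each; exact permutation p 0.1, adjusted 0.15). Neither pair of groups overlapped, and 0.1 is the smallest p available. On the 3-month arrays, the difference of *Neurod1* and *Pax6* was almost constant, although both were lowest on replicate 1. *Neurod1* minus *Isl1* changed by -1.05 and overlapped between the ages (exact permutation p 0.2, adjusted 0.2).

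**Figure D3:**
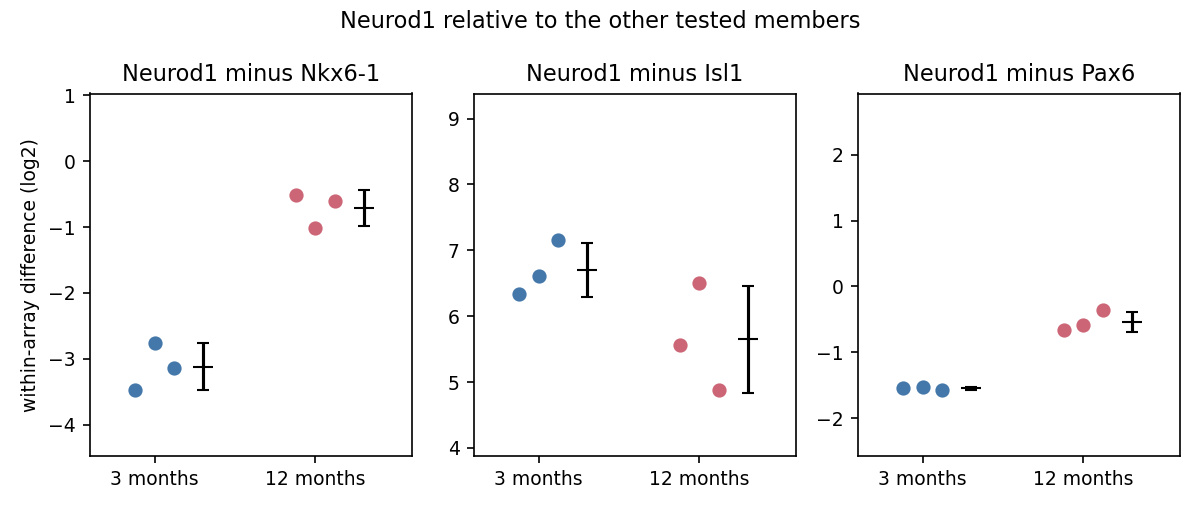
Within-array log2 difference of *Neurod1* minus *Nkx6-1*, *Isl1* or *Pax6* (vertical axes, each spanning the same number of log2 units) on the 3 arrays of each age, with mean ± SD; the position of an axis holds no information, because levels of different probes are not comparable. The ages separate for *Nkx6-1* and *Pax6*, with changes of 2.42 and 1.01, and overlap for *Isl1*.

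Genes whose profile over the 6 arrays was closest to each member were found among 9086 named genes that were well above background on all arrays. The measure was the Euclidean distance of the log2 values after subtraction of each gene's own mean. The closest gene was *Arl6ip6* for *Neurod1* (distance 0.207), *Orc2* for *Isl1* (0.592), *Amacr* for *Pax6* (0.194) and *Rnf111* for *Nkx6-1* (0.280). The members were less close to each other than to these genes. Each of these genes was picked as the closest of 9086, so this order was nearly fixed in advance. *Neurod1* and *Pax6* were 1.25 apart, with 284 genes closer to *Neurod1* than *Pax6* was and 1604 genes closer to *Pax6* than *Neurod1* was. The member closest to *Isl1* was *Neurod1* at 1.83, with 158 genes closer. The member closest to *Nkx6-1* was *Pax6* at 1.85, with 6852 genes closer. These distances describe 6 arrays and carry no test.

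Among 27 other islet transcription factors, 18 had a probe and 15 were tested. Of these, 4 were higher at 12 months at an adjusted p under 0.05, none was lower and 11 did not pass (limma). Over all tested probes, 5.32% were called higher and 3.05% lower. The 4 include *St18*, and the 11 include *Sox11*, which were each well above background at 1 age only and passed the filter on dim probes through that age. When only probes well above background on all 6 arrays were fitted, *St18*, *Esrrg* and *Sox11* dropped out of the 15. Of the factors that remained, 2 were called, beside 12.6% of all probes in that fit. The median difference of the 15 was 0.24, and 9 of 15 differences were above 0, against a median of -0.17 and 42.0% of differences above 0 over all tested probes. *Gata6*, a zinc-finger factor of pancreas formation, read 4.94, 5.14 and 4.37 log2 units at 3 months and 8.81, 8.35 and 8.80 at 12 months, a difference of 3.84 (limma SE 0.30, adjusted p 0.00304), with 3-month values near the detection limit of the 12-month arrays. *St18*, a zinc-finger gene of the Myt family, was well above background on every 12-month array and on no 3-month array. It entered the test through the 12-month arrays alone, so that its p supports nothing. For a rough size, each 3-month array was set to the higher of its own signal and the lowest signal well above background. Against that level the 12-month mean of *St18* was 13.7-fold higher. This is not a strict bound, because a probe not well above background can read above that signal, as *Pax4* did at 3 months. *Hhex*, a homeodomain factor of somatostatin cells that is also among the marker genes below and in the pathway the study listed, was higher by 1.68 (limma SE 0.29, adjusted p 0.0236). *Esrrg*, an orphan nuclear receptor, was higher by 1.97 (limma SE 0.37, adjusted p 0.0287), but was well above background on 1 array at 3 months and 2 at 12 months. *Neurog3*, the helix-loop-helix factor that precedes *Neurod1* in endocrine development, differed by -0.01 (limma adjusted p 0.986).

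Partners and inhibitors of the members numbered 26, of which 21 were tested. At an adjusted p under 0.05, 2 were higher, 1 was lower and 18 did not pass (limma). Over all tested probes 5.32% were called higher and 3.05% lower, and the single gene called lower among 21 lies near that share. The median difference was 0.41, and 13 of 21 were above 0, against 42.0% of all tested probes. *Hdac2*, among the 18, was well above background at 3 months only and passed the filter on dim probes through that age. The E proteins are the dimer partners of Neurod1. *Tcf12* was higher by 2.16 (limma SE 0.42, adjusted p 0.0309), from 4.34, 5.52 and 4.92 log2 units to 6.99, 6.56 and 7.70, with 3-month values again near the 12-month detection limit. The other two E-protein genes did not pass, with differences of 0.90 for *Tcf3* (limma adjusted p 0.0742) and -0.31 for *Tcf4* (limma adjusted p 0.434). *Id4*, of the family of proteins that sequester E proteins, was higher by 1.90 (limma SE 0.45, adjusted p 0.0492). *Id1*, *Id2* and *Id3* did not pass, with differences of -0.07, -0.66 and 0.46. The Ldb proteins bind the LIM domains of factors such as Isl1. *Ldb2* was lower by -1.65 (limma SE 0.39, adjusted p 0.0494), and *Ldb1* differed by 0.78 (limma adjusted p 0.108). None of the 3 calls of this list held when 12-month replicate 1 or 3, or 3-month replicate 1 or 3, was left out.

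Of 17 genes known as targets of these factors, 15 were tested, of which 2 were higher at 12 months, none was lower and 13 did not pass (limma, adjusted p), beside 5.32% higher and 3.05% lower over all tested probes. One of the 13, *Kcnj11*, had a value on 1 array only at 3 months, and its fit assumes that this array varies like the others. The median difference was 0.59, and 12 of 15 were above 0, against 42.0% of all tested probes. *Slc2a2*, the glucose transporter of rat β-cells, read 10.79, 10.73 and 11.67 log2 units at 3 months and 14.99, 15.61 and 14.92 at 12 months, a difference of 4.11 (limma SE 0.35, adjusted p 0.00369). The study had picked this gene on the same arrays and also reported its induction by qPCR. *Slc30a8*, the zinc transporter of insulin granules, rose from 10.63, 10.21 and 10.02 to 13.83, 13.28 and 14.90, by 3.71 (limma SE 0.44, adjusted p 0.00904).

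The insulin genes, whose promoters are printed above, were not called. *Ins1* read 18.86, 18.43 and 18.72 log2 units at 3 months and 18.72, 18.72 and 18.86 at 12 months, a difference of 0.10 (limma SE 0.23, adjusted p 0.786). *Ins2* read 18.27, 18.05 and 17.85 at 3 months and 17.85, 17.82 and 18.13 at 12 months, a difference of -0.12 (limma SE 0.24, adjusted p 0.737). Both overlapped between the ages. The 95% intervals were -0.45 to 0.65 for *Ins1* and -0.70 to 0.45 for *Ins2*. Quantile normalization gives each rank 1 value, so that *Ins1*, at the top of the ranks, took nearly the same values on every array. With the 75th percentile shift the differences were -0.67 for *Ins1* (limma adjusted p 0.411) and -0.67 for *Ins2* (limma adjusted p 0.398). *Iapp*, which encodes islet amyloid polypeptide, differed by 0.95 (limma adjusted p 0.0532) with no overlap between the ages, and the prohormone convertase genes *Pcsk1* and *Pcsk2* by 0.59 and -0.13 (limma adjusted p 0.172 and 0.751).

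**Figure D4:**
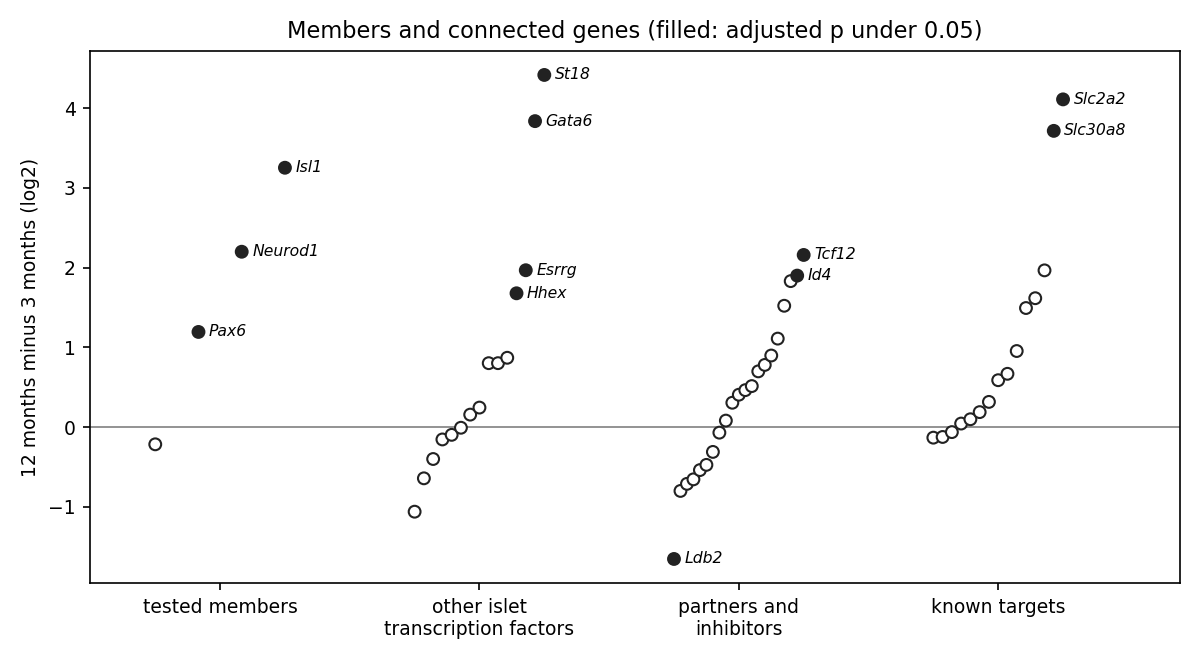
Difference between 12 and 3 months (log2, vertical axis) of each tested member, other islet transcription factor, partner or inhibitor, and known target; each point is a gene, filled where the limma adjusted p was under 0.05. For *St18*, dim at 3 months, the plotted value of 4.42 is the fitted one, and the text gives 13.7-fold against a set 3-month level. Filled are 3 of 4 members, 4 of 15 factors, 3 of 21 partners or inhibitors and 2 of 15 targets.

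Markers of the cell types in the preparations are given as counts and summed signals, with no test between cell types. Over all tested probes, 5.32% were called higher, 3.05% were called lower and 42.0% of differences were above 0. The β-cell, α-cell and acinar sums are carried by top-ranked genes, whose values quantile normalization nearly fixes. Of 5 tested β-cell markers, 4 were above 0 and 1 was called higher, and their summed signal ranged from 19.61 to 19.84 log2 units at 3 months and from 19.88 to 20.12 at 12 months. Of 4 α-cell markers 3 were above 0, with none called, and the sum ranged from 18.04 to 18.06 and from 18.13 to 18.35. All 3 δ-cell markers were above 0, with 1 called. All 6 tested mesenchymal markers were above 0 and 1 was called, the pericyte gene *Pdgfrb* (difference 1.68, limma adjusted p 0.0453), and the list's sum ranged from 13.28 to 14.10 at 3 months and from 14.69 to 16.01 at 12 months. All 5 tested nerve and Schwann cell markers were below 0 and 2 were called lower, *Prph* and *Sox10* (fitted without 3-month replicate 1, where it had no value); the sum ranged from 12.11 to 12.94 and from 10.74 to 11.36, and on no array was the Schwann cell gene *Cdh19* well above background. Of 8 acinar markers 7 were above 0 with none called, and the sum overlapped between the ages, at 20.63 to 21.11 and 20.71 to 21.27. Among the remaining lists, the pancreatic polypeptide gene *Ppy* (difference 0.44, groups not overlapping), 2 of 3 duct, 1 of 5 endothelial, 0 of 6 immune and 0 of 2 red cell markers were above 0, none of them called. Of the 5 endothelial markers, 3 were lower with no overlap between the ages, *Plvap*, *Tek* and *Cdh5*. Over the array, 4059 of 17874 probes with a value on all arrays were lower without overlap. The endothelial sum ranged from 15.74 to 16.13 at 3 months and from 14.98 to 15.69 at 12 months. The endothelial gene *Cdh5* was well above background at 3 months only and passed the filter on dim probes through that age. The part of the listed cell types in the differences of *Neurod1*, *Isl1* and *Pax6* was not tested.

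The difference of *Neurod1* lay between 1.94 and 2.33 under 18 alternative settings and passed an adjusted p of 0.05 in 14 of them. That of *Isl1* lay between 2.10 and 3.58 and passed in 13. That of *Pax6* lay between 0.86 and 1.37 and passed in 6. *Nkx6-1* passed in none, between -0.59 and 0.020. When each of the 6 arrays was left out in turn, *Neurod1* and *Isl1* passed every time and *Pax6* never (limma).

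**Figure D5:**
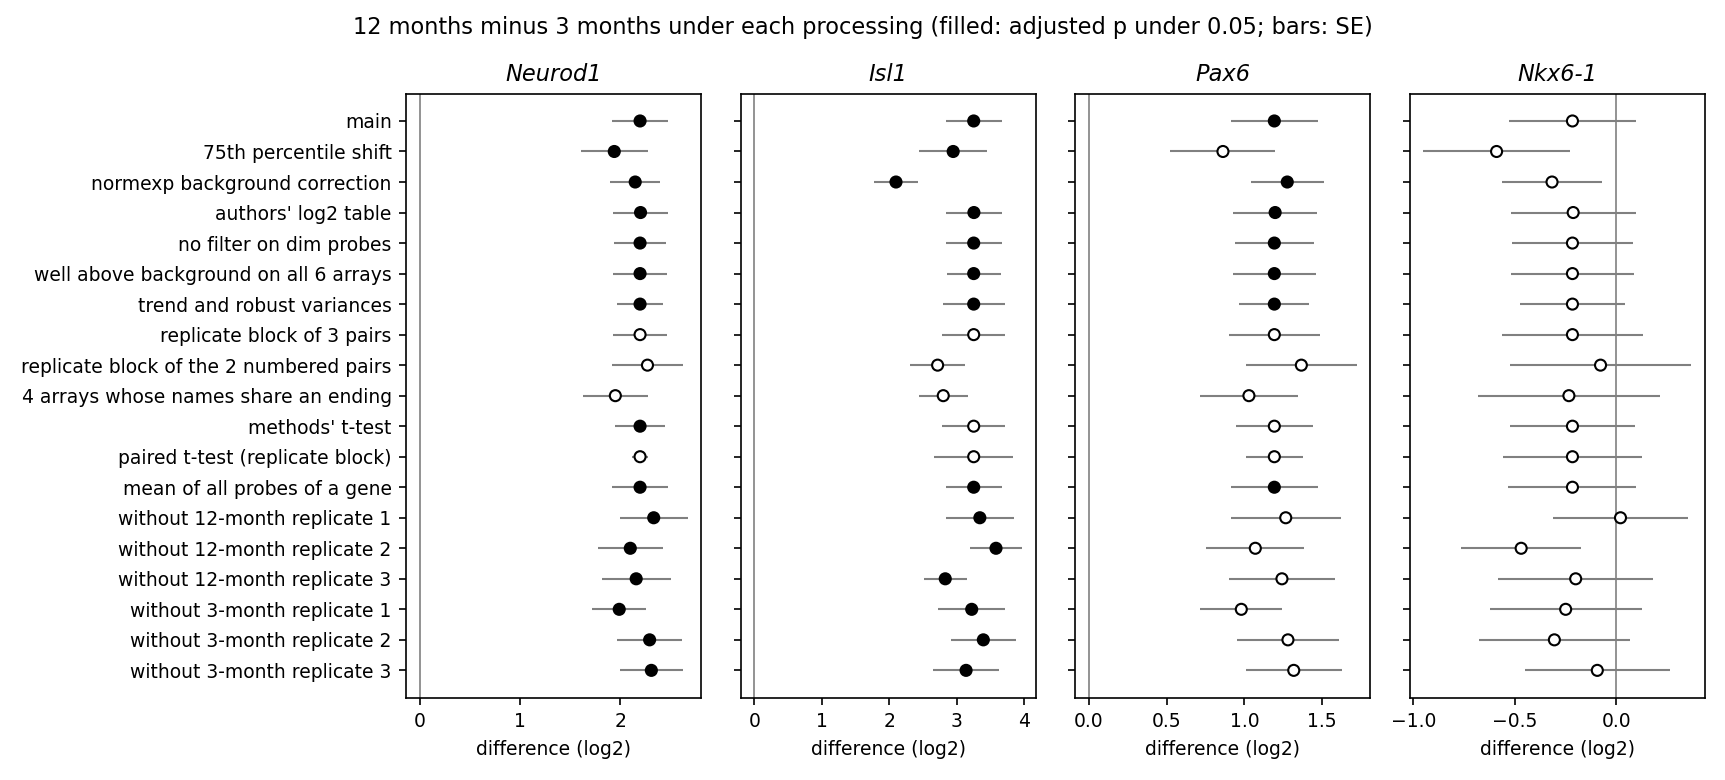
Difference between 12 and 3 months (log2, horizontal axis; points, with SE as bars) of the 4 tested members under the main setting (top) and the 18 alternatives (rows); filled points have an adjusted p under 0.05. *Neurod1*, *Isl1* and *Pax6* stay to the right of 0 in all of these settings, while filled points are fewer for *Pax6*, and *Nkx6-1* lies at or left of 0 except at 0.020 without 12-month replicate 1.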

How the data were processed

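The deposited scanner data give spot intensity, measured with Agilent Feature Extraction 11.0.1.1 and, per the file headers, without normalization between arrays; its background-subtracted form was used. A second deposited table holds the authors' own log2 values of 12145 probes; on every array these correlated with the present values at 0.9996 or more across probes. Read depth does not apply to arrays, and precision is limited by the number of arrays. The labels gave the age of each sample (3 arrays each).

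Control spots and outlier spots were left out, spots of a probe were averaged as log2 values, and the arrays were quantile normalized, the normalization that the study names. Of 24684 probes, 17944 were well above background on at least 3 of 6 arrays and 17941 could be tested. Ages were compared with limma 3.58.1 in R 4.3.3 (lmFit and eBayes, two-sided, no block), and p-values were adjusted over all tested probes by Benjamini-Hochberg. Probes were named by RefSeq accession, without version, through a table of assembly GRCr8; the probe with the highest mean represented a gene. Probe coordinates are left out, since the array was designed on an earlier build. The model was tested on simulated data. An exact permutation of 3 arrays against 3 has 20 arrangements.

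Named were all 8 members, up to 5 called genes of each list with groups that did not overlap, *Ins1*, *Ins2* and *Slc2a2*, and the gene nearest to each member; further genes of the lists were added as context after their values were seen. Members and lists were chosen with earlier results of these data known. The labels number all arrays except 1 of the 12-month arrays. Same-numbered arrays did not deviate together (correlations of -0.01 and -0.31, and -0.26 for the pair left over), so the main comparison has no block. Alternatives were another scaling, normexp (offset 50, on median signals), the authors' table, other filters and variances, blocks, 4 arrays whose names share an ending, plain t-tests, the mean over probes and each array left out. Within-array comparisons of *Neurod1* with 4 further members were not possible, because these had no tested probe. Some list genes enter the counts without being named.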

Additional observations from a re-analysis of the deposited data

How the results depend on the processing

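The difference of *Nkx6-1* was 0.020 without 12-month replicate 1 (-0.47 to 0.020 with each array left out), against -0.22. That of *Ins1* was -0.67 with the 75th percentile shift and -0.022 without 3-month replicate 2 (-0.022 to 0.19 with each array left out), against 0.10, and that of *Ins2* was -0.67 with the shift, against -0.12. The cause was not tested.

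Of the 4 tested members, 3 passed the adjusted threshold in the main comparison. With a replicate block of 3 pairs, 0 passed (adjusted p 0.0656 for *Neurod1*, 0.0734 for *Isl1* and 0.129 for *Pax6* in limma; 97 probes passed over the whole array). With a block of the 2 numbered pairs, with the 4 arrays of a common name ending and with the paired t-test, 0 members passed, and over the whole array 0, 0 and 1 probes passed; fewer arrays or residual degrees of freedom entered these fits. The methods' t-test called 1 member, *Neurod1*, after Benjamini-Hochberg adjustment, and 2.43% of all probes. By their correlations same-numbered arrays did not deviate together, but this does not settle the pairing for single members. With pairs, the t-test SE was smaller for *Neurod1* (0.084 against 0.251) and *Pax6* (0.184 against 0.246). It was larger for *Isl1* (0.585 against 0.468). What a call lost under the block means was not tested. The supplement of the study nevertheless names a paired test, and how it paired the arrays is not known here. In each of these alternatives *Neurod1*, *Isl1* and *Pax6* kept the direction of the main comparison, and 3 members passed the threshold of the study.

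The 2 known targets called became 1 with the block of 3 pairs and with the methods' t-test, and 0 with the block of 2 pairs, the 4 arrays and the paired t-test. The 4 other islet transcription factors became 2 with the block of 3 pairs and with probes above background on all 6 arrays (which leaves out *St18* and *Esrrg*), 1 with the methods' t-test, and 0 with the block of 2 pairs, the 4 arrays and the paired t-test. The 3 partners and inhibitors became 5 with normexp, 1 without a filter on dim probes, and 0 with the block of 3 pairs, the block of 2 pairs, the 4 arrays, the methods' t-test and the paired t-test. Of all probes, 0.541% were called with the block of 3 pairs and 2.43% with the methods' t-test. The share was 12.6% with probes above background on all 6 arrays, 10.5% with normexp and 9.48% without a filter on dim probes.

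With each array left out in turn, 2 members passed the adjusted threshold every time, beside 1.16% to 12.1% of all probes, and 2 to 3 passed that of the study, the 2 without 3-month replicate 1, where the difference of *Pax6* was 0.98. Between 2 and 4 other islet transcription factors passed, the 2 without 12-month replicate 1 or 3 or without 3-month replicate 1 or 3, and 0 to 2 partners and inhibitors. Dim signal limits *Isl1*, *Gata6* and *Tcf12* at 3 months and gives no level for *Pax4*.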

Other observations

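Among the 12-month arrays, 4 genes of β-cells had the same order, picked after their values were seen and given with no test. *Isl1* read 8.24, 7.76 and 9.26 log2 units on replicates 1, 2 and 3, and *Slc30a8* read 13.83, 13.28 and 14.90. *Ucn3*, a peptide of mature β-cells, read 11.92, 10.70 and 13.04. *Abcc8*, the sulfonylurea receptor subunit, read 10.55, 7.97 and 11.51. In each of these 4 genes replicate 3 was highest and replicate 2 lowest. Other β-cell genes did not share this order: *Slc2a2* (14.99, 15.61 and 14.92) and *Pcsk1* were highest on replicate 2, as were *Neurod1*, *Pax6* and *Nkx6-1*. Of 8 acinar genes, *Ctrb1* (17.64, 14.39 and 17.91), *Cel* (17.36, 14.36 and 17.88), *Cpa1* and *Cela1* were lowest on replicate 2, and *Amy2a3*, *Cpb1*, *Pnlip* and *Cela2a* were not. The part of acinar RNA in these orders was not tested.

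Several factors of islet development were dim. On no array were *Irx1* and *Prox1* well above background, and *Lmx1a* was so on 2 of the 3-month arrays and on none at 12 months. *Sox11* was well above background on all 3 arrays at 3 months and on none at 12 months, where the lowest signal well above background was also higher, at 4.26 to 5.13 log2 units against 2.89 to 3.17.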
